A study of Mus musculus with 10 samples.

Results

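Cells that were dividing were described among mouse microglia, the resident macrophages of the brain, cultured within neonatal brain slices. A cell of a slice library was taken as proliferating when it held at least 5 UMIs (unique molecular identifiers, each counting 1 captured transcript) summed over 6 genes of late cell cycle, Mki67, Top2a, Cenpf, Hmmr, Prc1 and Nusap1. Cells had to have at most 5% mitochondrial UMIs, at least 400 genes and at most 30000 UMIs, and S100a8 plus S100a9, which mark neutrophils, had to stay below 1% of the UMIs. The rule took 367 of 6427 slice cells (5.71%), 5410 slice cells held 0 UMIs of the 6 genes and served for comparison, and 650 held 1 to 4. The 6 slice libraries were part of a series of 10 single-cell libraries with 19637 barcodes, of which 19059 passed the limits on mitochondrial share, genes and UMIs.

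All mice were C57BL/6. Slices of 300 µm were cut from the brains of P1 to P4 pups with the cerebellum removed, and were cultured for 1 day, 1 week or 3 weeks in medium with horse serum and human PDGF (platelet-derived growth factor), with 2 libraries at each time. Several slices were pooled for a library as needed, and cells were sorted as DAPI-negative, CD11b high and CD45 intermediate. The other libraries, also 2 each, held microglia of a mixed glial culture from P2 pups kept for 3 weeks (in vitro) and microglia taken directly from adult mice of 10 to 15 weeks (adult). Pups behind each library were not named, so that the 2 libraries of a group may share animals. In the comparison of times p-values measure the spread between these libraries. In comparisons within libraries they measure how far the difference between the 2 kinds of cells varied over the libraries.

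A dividing cell copies its DNA in S phase and then condenses and separates its chromosomes in mitosis. Mki67 encodes Ki-67, a coat of mitotic chromosomes and the usual histological mark of dividing cells, Top2a a topoisomerase that untangles sister DNA, Cenpf a kinetochore protein, Hmmr a spindle protein, Prc1 a bundler of the central spindle and Nusap1 a microtubule binder of the spindle. Transcripts of these genes are low in G1, accumulate through G2 and are highest near mitosis, and microglia can renew themselves by such divisions within the brain, where survival depends on the receptor CSF1R.

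Promoters of such late cell cycle genes are known for a short element, the cell cycle genes homology region (CHR), and for CCAAT boxes that lie near it. RefSeq promoter windows of GRCm38.p6 (250 bases before to 50 after the transcript start) were searched on both strands for the CHR letters TTTGAA or TTCGAA and, separately, for CCAAT. The CHR letters were present in 5 of the 6 rule genes, in 48 of the 68 matched genes of the mitosis list (70.6%), in 9 of 41 of the DNA replication list (21.95%), in 5 of 29 homeostatic microglia genes (17.2%) and in 21.7% of all 27025 genes with a window. Both letters were found in 5 of the 6 rule genes, in 58.8% of the matched mitosis list and in 9.65% of all genes, which describes the letters only. The windows of 4 genes are shown because their genes define the proliferating cells, with the CHR letters of either strand in capitals (TTCAAA is TTTGAA on the opposite strand): Mki67 chr7:135716330-135716629 on the minus strand, Top2a chr11:99024140-99024439 on the minus strand, Cenpf chr1:189688037-189688336 on the minus strand and Hmmr chr11:40733388-40733687 on the minus strand.
Mki67: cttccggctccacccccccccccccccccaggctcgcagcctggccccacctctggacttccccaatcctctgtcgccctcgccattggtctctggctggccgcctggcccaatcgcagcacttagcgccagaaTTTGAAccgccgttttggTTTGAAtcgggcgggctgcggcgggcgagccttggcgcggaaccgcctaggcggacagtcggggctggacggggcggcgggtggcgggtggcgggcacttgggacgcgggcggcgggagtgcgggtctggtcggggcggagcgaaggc
Top2a: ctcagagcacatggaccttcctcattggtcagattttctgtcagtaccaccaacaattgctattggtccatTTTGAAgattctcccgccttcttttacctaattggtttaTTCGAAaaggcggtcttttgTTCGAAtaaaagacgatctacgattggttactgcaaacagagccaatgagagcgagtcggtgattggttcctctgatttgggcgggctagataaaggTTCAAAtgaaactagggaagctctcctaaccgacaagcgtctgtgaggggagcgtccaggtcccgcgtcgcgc
Cenpf: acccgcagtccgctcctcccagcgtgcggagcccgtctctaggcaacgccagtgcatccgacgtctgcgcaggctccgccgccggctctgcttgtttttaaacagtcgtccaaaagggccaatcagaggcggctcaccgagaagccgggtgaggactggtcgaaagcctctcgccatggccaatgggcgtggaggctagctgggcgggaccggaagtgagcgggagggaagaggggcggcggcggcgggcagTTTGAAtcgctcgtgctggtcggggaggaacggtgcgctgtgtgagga
Hmmr: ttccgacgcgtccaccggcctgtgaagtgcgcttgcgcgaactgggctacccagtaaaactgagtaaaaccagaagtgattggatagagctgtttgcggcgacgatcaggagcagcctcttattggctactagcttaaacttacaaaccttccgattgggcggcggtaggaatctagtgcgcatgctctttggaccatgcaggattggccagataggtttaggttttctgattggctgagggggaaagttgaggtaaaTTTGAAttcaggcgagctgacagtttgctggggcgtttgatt
Top2a held 4 matches, Mki67 held 2 (the first base at -116 and -98 from the start), Cenpf and Hmmr held 1 each, 3 and 9 bases after the start, and Nusap1 held none in this window.

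Proliferating cells were rare in every slice library and their share did not rise or fall steadily with time in culture. At 1 day they were 20 of 450 cells in replicate 1 (4.44%, exact Clopper-Pearson 95% interval 2.74 to 6.78) and 77 of 900 in replicate 2 (8.56%, 6.81 to 10.6). At 1 week they were 2 of 124 cells (1.61%, 0.196 to 5.70) and 2 of 60 cells (3.33%, 0.406 to 11.5). At 3 weeks they were 93 of 1153 cells (8.07%, 6.56 to 9.79) and 173 of 3740 cells (4.63%, 3.97 to 5.35). Group means were 6.5% ± 2.91 at 1 day, 2.47% ± 1.22 at 1 week and 6.35% ± 2.43 at 3 weeks (SD, n = 2 libraries each). The libraries of 1 day and 3 weeks overlapped, both 1 week libraries lay below the other 4, and with 2 libraries against 2 an exact two-sided permutation test cannot give a p below 0.333. Under the same rule the in vitro libraries held 6.12% and 10.4%, above the 1 week slices and overlapping the other slices, and the adult libraries 0.237% (9 of 3799) and 0.170% (6 of 3527), below each slice library, although the interval of 1 week replicate 1 reaches down to 0.196%. The interval of 1 week replicate 2 overlapped those of the other 4 slice libraries, and that of 1 week replicate 1 overlapped those of 1 day replicate 1 and 3 weeks replicate 2 and lay below those of 1 day replicate 2 and 3 weeks replicate 1. The intervals cover counting error only.

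**Figure D1:**
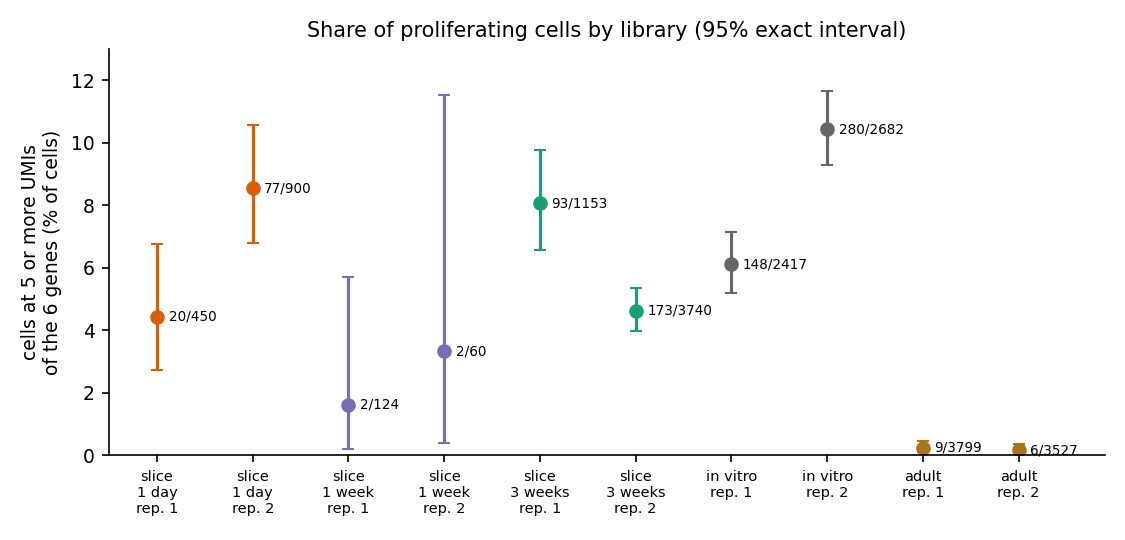
Percent of cells (y axis) with at least 5 UMIs over the 6 rule genes in each of the 10 libraries (x axis), with exact 95% intervals and the cells counted over the cells considered beside each point. The 1 week slice libraries rest on 2 cells each, and the adult libraries stand at 0.237% and 0.170%.

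Depth is described because asking for at least 5 UMIs against 0 favours deeper cells by construction. The median UMI count of proliferating cells was 9911 and 12275 in the 1 day libraries, 15576 and 12632 in those of 1 week and 7236 and 6892 in those of 3 weeks, against 6633, 8145, 7288, 6774, 5865 and 5166 in cells at 0 UMIs of the same libraries, 1.23 to 2.14 times as high. With every cell thinned to 3000 UMIs, shares at 5 or more UMIs were 0.236% and 0.457% in the 1 day libraries, 0 in both of 1 week, and 4.42% and 3.83% in those of 3 weeks (16 to 584 shallower cells left out per library), so that at this number both 3 week libraries lay above the other slice libraries. At 2 or more thinned UMIs the shares were 4.95% and 6.40%, 1.96% and 9.09%, and 10.0% and 5.48%, and the groups overlapped again. The other libraries also differed in depth, the cells at 0 UMIs having medians of 12253 and 13177 UMIs in vitro and 3253 and 1854 in the adult. Thinned alike, 41 of 2417 and 47 of 2682 in vitro cells and 7 of 2325 (0.301%) and 5 of 193 (2.59%) adult cells held 5 or more UMIs (1474 and 3334 shallower adult cells left out), so that the adult libraries no longer lay below each slice library. Which order of times was read thus depended on the number of UMIs asked for at equal depth.

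Levels of the 6 genes within the proliferating cells were higher at 3 weeks, a description since the rule used these values. The median cell held 5.5 and 7 UMIs of the 6 genes in the 1 day libraries, 6 and 7.5 in those of 1 week and 11 and 14 in those of 3 weeks, and the highest cell 16, 76, 7, 9, 41 and 88 in the same order. The 4 cells of 1 week held 7 and 5 UMIs in replicate 1 and 9 and 6 in replicate 2, with 63 to 141 UMIs of the mitosis list and 11 to 19 of the DNA replication list. At least 10 UMIs were held by 3 and 22 cells in the 1 day libraries, by none in those of 1 week and by 56 and 121 cells in those of 3 weeks, 202 of 367 in all (55.0%). All 6 genes were detected together in 93 cells (25.3%), 2 of them at 1 day, in replicate 2, and 23 and 68 at 3 weeks. Top2a was the highest of the 6 in the 1 day and 3 week libraries, at 1.9 ± 1.62 and 2.92 ± 3.72 UMIs per cell at 1 day and 4.77 ± 3.67 and 5.91 ± 5.06 at 3 weeks (SD over cells). Hmmr was seen in 15% and 45.5% of the cells at 1 day and in 62.4% and 70.5% at 3 weeks, and Mki67 in 60%, 64.9%, 76.3% and 88.4%.

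**Figure D2:**
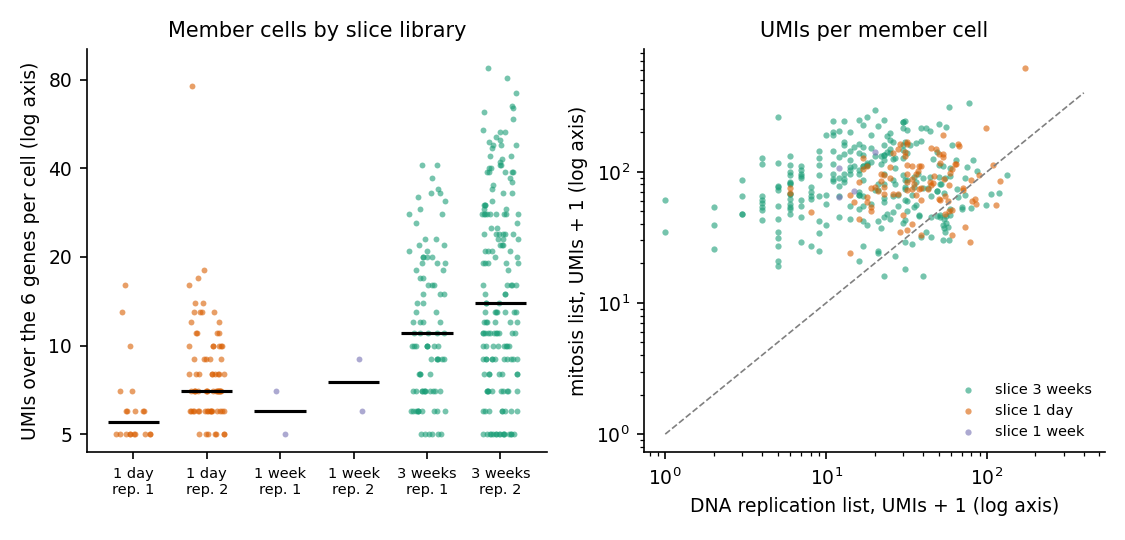
Left, UMIs over the 6 rule genes (log axis) in each proliferating cell of the 6 slice libraries, with the median as a bar, 5.5 and 7 at 1 day against 11 and 14 at 3 weeks. Right, UMIs of the mitosis list (y axis) against the DNA replication list (x axis) per cell, both plus 1 on log axes with the line of equality, below which 44 of the 367 cells lie.

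UMIs of the 6 genes tended to occur in the same cells, a description since the rule used these values. The cells were not matched on depth here. When cells were chosen by at least 3 UMIs over Mki67, Cenpf and Prc1 alone, a UMI of the other three genes was present in 83.3% to 98.7% of them in the 1 day and 3 week libraries, against 3.06% to 15.8% of the cells at 0 UMIs of the choosing genes. In the reverse direction the shares were 80% to 94.1% against 2.58% to 8.96%.

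Transcripts of mitosis and of DNA replication were summed by list in the chosen cells, a description since the rule asked for late cell cycle genes. Mitosis genes outside the 6 (85 listed) summed to 76.9 and 73.3 per 10000 UMIs in the 1 day libraries, 42.7 and 97.4 in those of 1 week and 116 and 129 in those of 3 weeks in proliferating cells, and to 9.23 to 12.2 in cells at 0 UMIs. DNA replication genes (51 listed, among them the MCM helicase and PCNA) summed to 31.8 and 34.9, 8.03 and 11.9, and 39.9 and 28.7 per 10000 UMIs, against 5.47 to 11.2. The mitosis sum, over more genes, was above the replication sum in the cells at 0 UMIs of each slice library too. In 44 proliferating cells (11.99%) replication UMIs outnumbered mitosis UMIs. From 0 to 1 to 4, 5 to 9 and 10 or more UMIs of the 6 genes, the mitosis list stood at 10.9, 27.8, 68.8 and 134 per 10000 UMIs, whereas the replication list stood at 7.21, 20.1, 35.7 and 30.8. At the threshold, 58 cells with 4 UMIs and 40 cells with 5 UMIs had 60.1 and 62.0 mitosis UMIs and 28.4 and 34.0 replication UMIs per 10000. Cells at 0 UMIs were not all low in replication genes, since a replication share at or above the proliferating cells' median was found in 2.03% to 4.19% of the cells at 0 UMIs at 1 day and 3 weeks, and in 19.8% and 15.7% at 1 week, where the median was that of 2 cells with low replication sums.

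**Figure D3:**
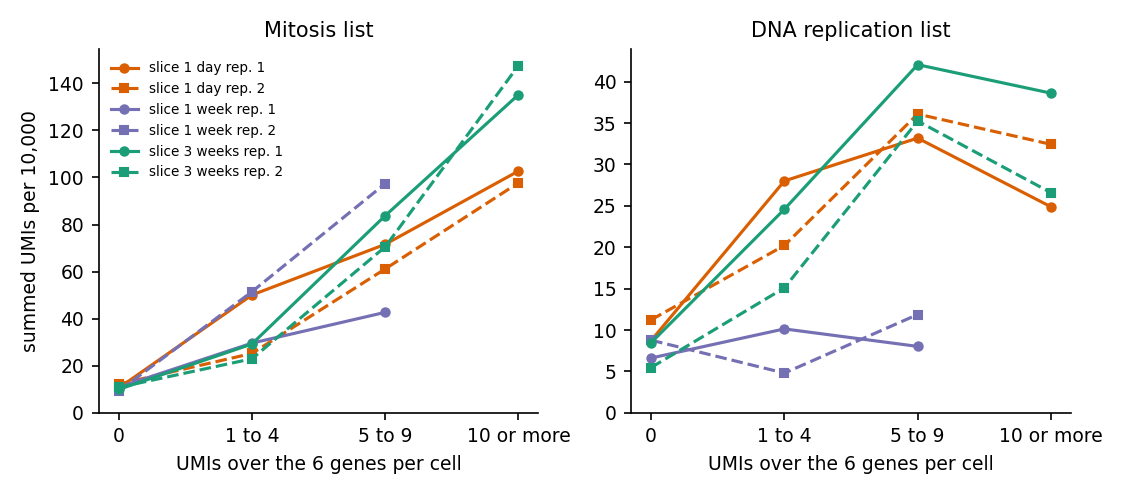
Summed UMIs per 10000 of the mitosis list (left) and the DNA replication list (right) in cells of each slice library, binned by their UMIs over the 6 rule genes (x axis). Over all slice cells the mitosis list goes from 10.9 at 0 UMIs to 134 at 10 or more, and the replication list from 7.21 to 30.8.

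Microglia markers were present in the proliferating cells, in each library at a slightly lower share of UMIs than in the cells at 0 UMIs. The 8 summed microglia marker genes, C1qa, C1qb, C1qc, Csf1r, Cx3cr1, Trem2, Tyrobp and Fcrls, made up 1.37% and 1.44% of their UMIs in the 1 day libraries, 2.49% and 2.77% in those of 1 week and 4.26% and 3.51% in those of 3 weeks, against 1.67%, 1.501%, 2.85%, 2.97%, 4.62% and 3.76% in the cells at 0 UMIs. The lowest single proliferating cell stood at 0.275%. In the 1 day and 3 week libraries, border macrophage markers summed to 91.4 to 171 CPM in proliferating cells and 185 to 592 CPM in cells at 0 UMIs, neuron markers to 1.55 to 9.10 and astrocyte markers to 9.001 to 41.8 CPM in proliferating cells. Monocyte markers summed to 482 to 529 CPM in proliferating cells and 569 to 607 CPM in cells at 0 UMIs at 1 day. At 3 weeks they summed to 236 to 287 CPM in proliferating cells and 159 to 242 CPM in cells at 0 UMIs. In the 2 proliferating cells of each 1 week library border macrophage markers summed to 385 and 39.6 CPM and neuron and astrocyte markers to 0, and border macrophage markers summed to 722 and 449 CPM in the cells at 0 UMIs. Erythroid markers summed to 123 CPM in the proliferating cells of 1 day replicate 1 and 2737 CPM in its cells at 0 UMIs, and to at most 1.20 CPM in either kind of cell of the other slice libraries. At least 2 UMIs of other macrophage and monocyte markers were held by 33 proliferating cells (8.99%) and 484 cells at 0 UMIs (8.95%). Neutrophil markers summed to 587 and 4574 CPM in proliferating cells at 1 day, close to the 730 and 4584 CPM of the cells at 0 UMIs, to 6003 and 39.6 CPM at 1 week (5897 and 162 CPM in the cells at 0 UMIs) and to 84.5 and 51.9 CPM at 3 weeks. The part of these other cell types' markers in the results that follow was not tested beyond leaving out the cells that hold other macrophage markers.

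Another 207 slice cells at or above the S100a8 and S100a9 limit were outside the rule, 68 and 114 in the 1 day libraries, 24 and 1 in those of 1 week and 0 in those of 3 weeks. Of these, 10 held 5 or more UMIs of the 6 genes (9 in 1 day replicate 2), with S100a8 and S100a9 at 15.4% to 23.7% of their UMIs and the 8 microglia markers at 0.314% to 0.589%. In 1 day replicate 1, 67 of the 68 held 0 UMIs of the 6 genes. The libraries shared 18 slice barcodes, which 2 proliferating cells carried.

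To find what set the proliferating cells apart beyond the cell cycle, UMIs were summed over the proliferating cells and over the cells at 0 UMIs in each of the 4 libraries of 1 day and 3 weeks and compared within libraries (edgeR quasi-likelihood, FDR below 0.05 and fold change over 1.5). The 1 week libraries, with 2 cells each, did not enter the fit. Of 8914 genes tested, 740 (8.3%) were higher and 528 (5.92%) lower in proliferating cells, 14.2% in all. The 6 rule genes and the lists of DNA replication, nucleotide synthesis, mitosis, chromatin and tubulin, and replication-dependent histones together supplied 178 of the higher genes and none of the lower, which is close to the rule and is no finding. Scaling by library size alone, not by TMM, the median of all genes moved from -0.06 to 0.05 and the called genes from 58.4% to 77.6% higher. Lower calls numbered 326 without 3 weeks replicate 1, and 237 with library size alone.

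Cell cycle genes outside the 6 were mostly higher, which the choice of cells implies, and their counts are a description. Called higher were 74 of 76 mitosis genes (median log2 fold change 4.90), 45 of 46 DNA replication genes (2.12), 16 of 23 nucleotide synthesis genes, 29 of 36 chromatin and tubulin genes and 8 of 10 replication-dependent histones. Among G1 regulators, 11 of 28 were higher and 1 lower, beside 8.3% and 5.92% of all genes. Cdkn2c, an inhibitor of the G1 kinases CDK4 and CDK6, stood at 94.4 and 89.8 CPM at 1 day and 224 and 193 CPM at 3 weeks in the proliferating cells, against 7.65, 10.7, 16.3 and 14.9 CPM in the cells at 0 UMIs of the same libraries. All 4 libraries were higher, without overlap (log2 fold change 3.66 ± 0.16 (SE), edgeR adjusted p = 1.56e-10). Ccne1 and Ccne2, the cyclins E of S phase entry, were higher by 3.28 ± 0.25 and 3.79 ± 0.35 (edgeR adjusted p = 5.59e-08 and 5.17e-07), and Cdk4 by 0.70 ± 0.13 (edgeR adjusted p = 0.00117), which against depth-matched cells was 0.56 and below the 1.5-fold limit. Btg1, which restrains growth, fell by 0.82 ± 0.14 (edgeR adjusted p = 4.17e-04). Ccnd1, the cyclin D of growth factor response, differed by -0.027 ± 0.16 and the inhibitor Cdkn1a by -0.27 ± 0.32, neither past the test (edgeR adjusted p = 0.941 and 0.625).

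Outside the cell cycle lists, 562 genes were higher and 528 lower. These lists do not hold every cell cycle gene, the G1 regulator Cdkn2c for example. The choice of cells thus bears on rises outside them too, which are a description. The 10 largest rises at an average log2 CPM of 6 or more were led by Cdkn2c, given above. Kpna2, a nuclear import receptor, stood at 261 and 246 CPM at 1 day and 275 and 82.9 CPM at 3 weeks in the proliferating cells, against 51.8, 66.4, 36.7 and 14.3 CPM in the cells at 0 UMIs of the same libraries (log2 fold change 2.50 ± 0.17 (SE), edgeR adjusted p = 1.16e-08). Every library was higher. Nde1, a centrosome and dynein factor, was higher by 1.87 ± 0.16, Smc1a, a subunit of cohesin, by 1.44 ± 0.19, Hat1, a histone acetyltransferase, by 1.46 ± 0.14, Nrm, of the inner nuclear membrane, by 1.94 ± 0.16, Sae1, of the SUMO activating enzyme, by 1.70 ± 0.14 and Lsm2, of the U6 snRNA ring, by 1.85 ± 0.14 on the log2 scale. Ccdc34 (2.22 ± 0.14) and 2700094K13Rik (2.12 ± 0.13) were the others, and the edgeR adjusted p of the 10 lay between 1.56e-10 and 3.07e-05.

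The 10 largest falls included macrophage genes. Gpnmb, a lysosomal and membrane glycoprotein of activated microglia, stood at 0 and 6.98 CPM at 1 day and 36.2 and 54.4 CPM at 3 weeks in the proliferating cells, against 21.9, 28.7, 289 and 182 CPM in the cells at 0 UMIs of the same libraries (log2 fold change -2.17 ± 0.24 (SE), edgeR adjusted p = 4.04e-06). Levels at 3 weeks did not overlap between the kinds of cells, and at 1 day the gene was low in both. Lgals3, galectin-3, stood at 773 and 683 CPM at 1 day and 127 and 616 CPM at 3 weeks in the proliferating cells, against 2225, 1853, 841 and 1520.5 CPM in the cells at 0 UMIs of the same libraries (log2 fold change -1.62 ± 0.20 (SE), edgeR adjusted p = 1.26e-05). It was lower in each library. Also lower on the log2 scale were Ms4a7, a membrane protein of border macrophages (-2.79 ± 0.24), Pla2g7, a phospholipase (-2.59 ± 0.21), and Ccl5, a chemokine (-2.43 ± 0.28). A UMI of Ccl5 was found in 35%, 39.0%, 4.30% and 2.31% of the proliferating cells and in 27.8%, 31.6%, 4.57% and 2.30% of the cells at 0 UMIs, of which a single cell held 19.0%, 15.8%, 32.5% and 45.0% of the UMIs. Mmp12, macrophage elastase (-2.18 ± 0.26), Lilr4b, an inhibitory receptor (-1.95 ± 0.19), and Hmox1, heme oxygenase (-1.56 ± 0.15), completed this group (with Gpnmb, edgeR adjusted p between 1.49e-07 and 1.18e-05). Pf4, a platelet factor of border macrophages, was -1.79 but -0.31 without the cells that hold other macrophage markers (not called), and Saa3, serum amyloid, was -1.46 but 0.0098 against depth-matched cells.

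Disease-associated microglia genes, the set that rises around plaques and in phagocytic microglia, were in part lower in the proliferating cells. Of 29 tested, 14 were lower and none higher, with a median log2 fold change of -0.63 beside -0.06 over all genes and 5.92% of all genes called lower. Igf1, a growth factor, stood at 179.8 and 102 CPM at 1 day and 84.4 and 94.5 CPM at 3 weeks in the proliferating cells, against 306, 295, 306 and 260.0 CPM in the cells at 0 UMIs of the same libraries (log2 fold change -1.35 ± 0.16 (SE), edgeR adjusted p = 7.94e-06). Each library was lower. Lpl, lipoprotein lipase, was at -0.63 ± 0.17 and Apoe, the lipid carrier, at -0.65 ± 0.21 (edgeR adjusted p = 0.0159 and 0.0370), and both fell below the 1.5-fold limit with library size alone (-0.55 and -0.57) and without either 3 week library. Trem2 (-0.46 ± 0.15), a receptor for lipids, and its adaptor Tyrobp (-0.48 ± 0.16) stayed within the 1.5-fold limit (edgeR adjusted p = 0.0466 and 0.0428). The number called lower was 7 with library size alone, 11 against depth-matched cells, 13 without cells that hold other macrophage markers, 6 without 3 weeks replicate 1 and 9 without 3 weeks replicate 2, and 21 in the 3 week libraries fitted alone. In the 1 day libraries fitted alone 7 were lower and 1 higher, Spp1 (0.62).

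**Figure D4:**
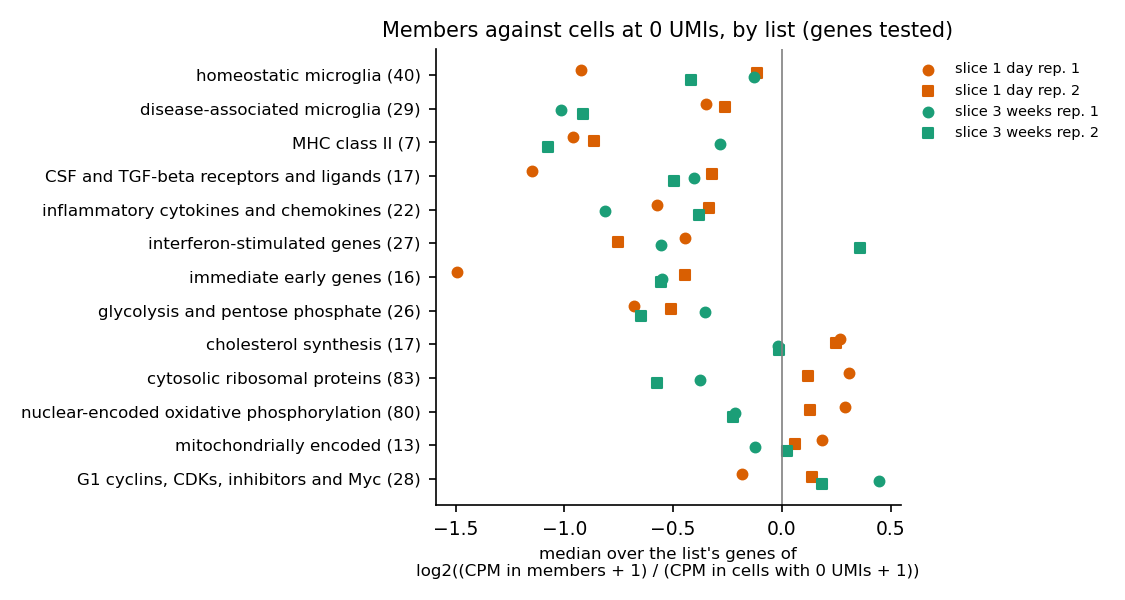
Median over each list's genes of the log2 ratio of CPM + 1 in proliferating cells (members) over cells at 0 UMIs, in each of the 4 libraries of 1 day and 3 weeks, with the number of genes tested in parentheses. Disease-associated genes lie below 0 in every library and further below at 3 weeks, and the interferon list lies above 0 in 3 weeks replicate 2 alone.

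Homeostatic microglia genes, the set that marks resting microglia, mostly did not pass the test, with 3 of 40 lower (7.5%, beside 5.92% of all genes), none higher and a median of -0.20. P2ry12, a purinergic receptor, stood at 89.9 and 93.8 CPM at 1 day and 979 and 562 CPM at 3 weeks in the proliferating cells, against 179, 74.2, 1044 and 926 CPM in the cells at 0 UMIs of the same libraries (log2 fold change -0.22 ± 0.17 (SE), edgeR adjusted p = 0.430). The kinds of cells overlapped. Tmem119 (-0.16 ± 0.24), Cx3cr1, the fractalkine receptor (-0.034 ± 0.13), Csf1r, the survival receptor (-0.14 ± 0.13), and Cst3, cystatin C (-0.53 ± 0.18), also did not pass the test (edgeR adjusted p from 0.0506 to 0.898). The lower genes included Mef2a, a transcription factor (-0.63 ± 0.16), and Ctss, cathepsin S (-0.63 ± 0.16), and both values lay between -0.47 and -0.54, under the 1.5-fold limit, with library size alone and against depth-matched cells, where 0 of the list were called. The number called lower was 8 in the 1 day libraries and 0 in the 3 week libraries fitted alone, and 1 without 1 day replicate 1.

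Immediate early genes, which answer stimuli and tissue handling within minutes, were lower in 8 of 16 (50%, beside 5.92% of all genes) and higher in none (median -0.74). Atf3, a stress transcription factor, stood at 71.9 and 128 CPM at 1 day and 38.6 and 43.5 CPM at 3 weeks in the proliferating cells, against 198, 164, 132 and 162 CPM in the cells at 0 UMIs of the same libraries (log2 fold change -1.21 ± 0.21 (SE), edgeR adjusted p = 5.06e-04). The JunD gene Jund (-1.003 ± 0.15) and Ier3 (-0.86 ± 0.20) were lower too, with 4 genes of the list called against depth-matched cells, 4 without 3 weeks replicate 1 and 5 with library size alone. Glycolysis and pentose phosphate genes were lower in 8 of 26 (30.8%, beside the same 5.92%) and higher in none (median -0.43). Lower were Slc2a1, the glucose transporter GLUT1 (-0.78 ± 0.14), Aldoa, aldolase (-0.66 ± 0.14), and Pfkl, phosphofructokinase (-0.65 ± 0.13) (edgeR adjusted p = 6.80e-04, 0.00259 and 0.00252), and 3 genes of the list were called with library size alone and 4 against depth-matched cells.

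Antigen presentation genes of MHC class II were lower in 2 of 7 (beside 5.92% of all genes), namely Cd74, the invariant chain (-1.35 ± 0.16, edgeR adjusted p = 8.45e-06), and H2-Ab1 (-0.88 ± 0.16, edgeR adjusted p = 0.00103). Of 22 inflammatory cytokines and chemokines 2 were higher (9.09%, beside 8.3% of all genes), the chemokines Ccl2 (0.73 ± 0.18) and Ccl12 (0.79 ± 0.25). Lower were 3 (beside 5.92% of all genes), Ccl5, Saa3 and Cd14, with Cd14, the endotoxin co-receptor, at -1.01 ± 0.14 (edgeR adjusted p = 5.03e-05). In 1 day replicate 1 and 3 weeks replicate 2, a single proliferating cell held 51.0% and 37.7% of the Ccl12 UMIs, and a single cell 41.1% and 72.2% of the Ccl2 UMIs. Interferon-stimulated genes (27 tested), cytosolic ribosomal proteins (83) and mitochondrially encoded genes (13) had no call in either direction in the same edgeR fit, where 2663 genes had an unadjusted p below 0.05. Fitted by time, however, interferon-stimulated genes were lower in 9 and higher in 0 in the 1 day libraries and higher in 5 and lower in 0 in the 3 week libraries, and 5 were lower without 3 weeks replicate 2. Of all 8667 genes tested in the 1 day fit, 608 were higher and 466 lower. Of all 9977 tested in the 3 week fit, 1023 were higher and 541 lower. Of 80 nuclear-encoded oxidative phosphorylation genes 1 was lower, Cox4i2 (-1.34 ± 0.43), and of 17 cholesterol synthesis genes 1 was higher, Acat2 (1.004 ± 0.27). These are 1.25% and 5.88% of the lists, beside 5.92% of all genes lower and 8.3% higher. Of other cell types' markers Mbp, a myelin gene (-1.29 ± 0.24), and Pecam1, of endothelial cells (-1.35 ± 0.43), were also called lower, calls kept in 11 of 14 and 4 of 11 alternatives. A list of CSF, TGF-beta and other growth factor and cytokine receptors and ligands held 3 lower genes of 17 (beside 5.92% of all genes), namely Igf1, counted above among the disease-associated genes, its receptor Igf1r (-1.01 ± 0.33) and Il3ra (-0.91 ± 0.30). These calls were each lost under several alternatives, Ccl2 keeping its call in 10 of 15, Ccl12 in 6 of 15, Igf1r in 5 of 14, Il3ra in 4 of 15, Acat2 in 9 of 14 and Cox4i2 in 4 of 12. Without 1 day replicate 1 Ccl2 stood at 0.52 and Ccl12 at 0.40. Mitochondrial UMIs made up 1.42% to 2.03% in the proliferating cells of these libraries and 1.31% to 1.83% in the cells at 0 UMIs.

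Within the proliferating cells, those at 3 weeks were compared with those at 1 day. Of 7282 genes tested, 626 (8.6%) were higher and 642 (8.82%) lower at 3 weeks, 17.4% in all, between 20 and 77 cells at 1 day and 93 and 173 cells at 3 weeks. Homeostatic genes were higher in 34 of 40 and lower in none, with a median log2 fold change of 1.89 beside 0.04 over all genes, and 28 to 35 of them were called in each alternative. The count of all calls fell to 350 higher and 306 lower without 1 day replicate 2 and to 393 and 415 without 3 weeks replicate 2, and rose to 1029 and 1142 without 3 weeks replicate 1. The study label of 3 weeks replicate 1 differed from that of the other 3 slice libraries, and as a covariate it left 465 higher and 521 lower genes.

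P2ry12 stood at 89.9 and 93.8 CPM at 1 day and 979 and 562 CPM at 3 weeks in the proliferating cells (log2 fold change 3.11 ± 0.30 (SE), edgeR adjusted p = 1.87e-04). In the cells at 0 UMIs it was at 179, 74.2, 1044 and 926 CPM in the same order, so that both kinds of cells were higher at 3 weeks. Tmem119 stood at 18.0 and 31.9 CPM at 1 day and 717 and 388 CPM at 3 weeks (log2 fold change 4.34 ± 0.37 (SE), edgeR adjusted p = 9.62e-05), against 121, 49.7, 525 and 427 CPM in the cells at 0 UMIs. The 2 groups did not overlap for either gene. Selplg, a selectin ligand, was higher by 3.90 ± 0.29, Ltc4s, leukotriene C4 synthase, by 4.23 ± 0.27, Cst3 by 2.20 ± 0.25, Csf1r by 1.29 ± 0.27 and Cx3cr1 by 1.20 ± 0.23 (edgeR adjusted p from 2.52e-05 to 0.01005). Csf1r was not called without 1 day replicate 2 and stood at 0.80 without 3 weeks replicate 1, and Cx3cr1 kept its call in 10 of 11 alternatives.

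Of 28 disease-associated genes 14 were higher and 5 lower at 3 weeks (beside 8.6% and 8.82% of all genes), the higher ones numbering 9 without 1 day replicate 1 and 6 without 1 day replicate 2. The lower genes were Spp1, Fabp5, Lpl, Ch25h (-3.36 ± 0.63) and Ftl1 (-0.82 ± 0.25), Ch25h (-0.94) and Ftl1 (-0.87) not being called without 1 day replicate 2, and Ftl1 not without 1 day replicate 1 either. Spp1, osteopontin, stood at 17974 and 15405 CPM at 1 day and 797 and 255 CPM at 3 weeks in the proliferating cells (log2 fold change -4.96 ± 0.47 (SE), edgeR adjusted p = 1.87e-04). The 2 groups did not overlap, and in the cells at 0 UMIs, given below, Spp1 was lower at 3 weeks too. Fabp5, a fatty acid binding protein (-2.96 ± 0.25), and Lpl (-1.77 ± 0.23) were lower (edgeR adjusted p = 9.62e-05 and 0.00108). Cst7, cystatin F, stood at 27.0 and 34.9 CPM at 1 day and 609.8 and 1401 CPM at 3 weeks (log2 fold change 5.02 ± 0.45 (SE), edgeR adjusted p = 1.06e-04). Apoe (0.97 ± 0.25) was higher too (edgeR adjusted p = 0.0245), but not without either 1 day library. Gpnmb, counted among the higher genes, had 0 and 7 UMIs in the proliferating cells of 1 day. It passed the filter on low counts through the 3 week libraries alone, so that only its levels, above, are given. Lgals3 was at -0.87 ± 0.51 and not called (edgeR adjusted p = 0.260). Without 3 weeks replicate 2 it stood at -2.46 and was called lower (edgeR adjusted p = 6.57e-04), and with a library left out its values lay between -2.46 and -0.18.

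Of the inflammatory list 8 of 19 were lower at 3 weeks and 1 higher, beside 8.82% and 8.6% of all genes. Summed, the list stood at 7562 and 7571 CPM at 1 day and between 3365 and 4002 CPM at 3 weeks in the proliferating cells. It was lower at 3 weeks in the cells at 0 UMIs too, with 7500 to 7605 CPM at 1 day and 3302 to 4516 CPM at 3 weeks. Ccl2, a monocyte chemokine, stood at 885 and 761 CPM at 1 day and 125 and 85.6 CPM at 3 weeks in the proliferating cells (log2 fold change -2.92 ± 0.25 (SE), edgeR adjusted p = 1.001e-04). The 1 higher call was Cxcl10, with 0 and 5 UMIs at 1 day. It passed the filter on low counts through the 3 week libraries alone, so no fold is given. A single cell held 69.0% of its UMIs in 3 weeks replicate 1, and 1 cell 92.0% in replicate 2. In the MHC class II list (5 tested) H2-DMa (2.71 ± 0.44) and H2-DMb1 (1.86 ± 0.28) were higher and Cd74 was lower (-2.48 ± 0.35). H2-Ob (0 in both 1 day libraries, 13.3 and 19.0 CPM at 3 weeks) passed the filter on low counts through the 3 week libraries alone and is given as levels. Ramp1, a receptor partner, stood at 0 and 5.99 CPM at 1 day and 119 and 239 CPM at 3 weeks. Its 1 day cells held 0 and 6 UMIs, so that it too passed the filter through the 3 week libraries alone and is given as levels. Cox6a2 (4.64 ± 1.11) was among the 6 largest rises, at 2.84 without 1 day replicate 2 and not called without 3 weeks replicate 2 (2.35) or with DESeq2. Nme1 (-1.59 ± 0.23) and Nme2 (-2.90 ± 0.36), nucleoside diphosphate kinases, were lower, as were 11 of 83 cytosolic ribosomal proteins (13.3%) and 16 of 78 oxidative phosphorylation genes (20.5%), beside 8.82% of all genes. Both counts moved with the libraries, that of ribosomal proteins being 2 without either 1 day library and 38 without 3 weeks replicate 2, and that of oxidative phosphorylation 6 without 1 day replicate 1, 3 without 1 day replicate 2 and 31 without 3 weeks replicate 1.

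Neutrophil genes were detected at 1 day and were at or near 0 at 3 weeks, so that their rank among the falls is not used. S100a8 stood at 324 and 1927 CPM at 1 day and 4.82 and 0 CPM at 3 weeks in the proliferating cells and at 372, 1997, 3.42 and 1.13 CPM in the cells at 0 UMIs, and S100a9 at 171 and 1522 CPM at 1 day and 0 and 0 CPM at 3 weeks and 182, 1500.5, 0.190 and 0.178 CPM. Levels in the 2 kinds of cells of a library lay close together, in libraries where 68 and 114 cells at 1 day and 0 at 3 weeks were above the S100a8 and S100a9 limit. Retnlg and the stefin genes Stfa1, BC100530 and Gm5483, also of neutrophils, stood at 31.5 to 67.4 CPM in 1 day replicate 1, at 203 to 484 CPM in replicate 2 and at 0 at 3 weeks. No fold change is given for these genes, which were at or near 0 at 3 weeks.

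Of 81 mitosis genes 28 were called higher in the proliferating cells of 3 weeks and none lower (median 0.74), and of 46 DNA replication genes none was called in either direction by edgeR. The mitosis counts are a description, since the rule used late cell cycle genes and a UMI number that is a smaller share of the deeper 1 day cells. The count was 19 without 1 day replicate 1, 10 without 1 day replicate 2, 38 without 3 weeks replicate 1, 11 without 3 weeks replicate 2 and 11 with DESeq2, with medians between 0.61 and 0.72. Without 3 weeks replicate 1, DNA replication genes were higher in 2 and lower in 7. With the cells thinned to 3000 UMIs 20 of 65 mitosis genes were called higher, with a median of 0.92, among 3828 genes tested. Hjurp, a chaperone of centromeric histone, stood at 31.5 and 52.9 CPM at 1 day and 233 and 215 CPM at 3 weeks (log2 fold change 2.33 ± 0.26 (SE), edgeR adjusted p = 5.50e-04), and Ccnb2, a mitotic cyclin, was higher by 1.33 ± 0.24. Ccnb1 (0.099 ± 0.21) and Ccna2 (0.18 ± 0.22), cyclins B1 and A2, were not called (edgeR adjusted p = 0.781 and 0.611). Chromatin and tubulin genes were higher in 7 of 36 and lower in 7, beside 8.6% and 8.82% of all genes. These counts moved when a library was left out. H2afv (2.11 ± 0.24) was above and Ranbp1 (-1.53 ± 0.24) below. The linker histone Hist1h1b (3.10 ± 0.67) was higher, at 1.54 without 3 weeks replicate 2. Hist1h1e, another linker histone, had 1 and 8 UMIs in the 1 day cells. It passed the filter on low counts through the 3 week libraries alone, so no fold is given. Among G1 genes Cdkn2c (1.25 ± 0.22) and Ccne2 (1.29 ± 0.34) were higher and Cdk4 (-1.0 ± 0.22) lower at 3 weeks, calls that Cdkn2c, Ccne2 and Cdk4 each lost without 1 day replicate 2.

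Whether the gap between proliferating cells and cells at 0 UMIs itself changed with time was tested as an interaction. Of 9763 genes tested, the gap was more positive at 3 weeks for 175 (1.79%) and more negative for 166 (1.7%), 3.49% in all (edgeR FDR below 0.05). These p-values rest on 2 residual degrees of freedom and a spread shared over genes, and without the library block no gene was called in either direction and 671 had an unadjusted p below 0.05. Without 1 day replicate 2 the counts were 34 and 72, without 3 weeks replicate 1 they were 88 and 43, and without 3 weeks replicate 2 they were 26 and 19. With library size alone the median of all genes moved from 0.03 to 0.28 and the called genes from 51.3% to 90.1% more positive.

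Spp1 had the largest change of gap among disease-associated genes. It stood at 17974 and 15405 CPM at 1 day and 797 and 255 CPM at 3 weeks in the proliferating cells, against 10172, 12413, 5003 and 1529 CPM in the cells at 0 UMIs of the same libraries. The proliferating cells were above the others at 1 day and below them at 3 weeks, by 0.62 and -2.45 on the log2 scale with each time fitted alone, and the difference of the gaps was -3.10 ± 0.18 (edgeR adjusted p = 4.53e-27). At 3 weeks replicate 2 a UMI of Spp1 was found in 49.7% of the proliferating cells and 38.3% of the cells at 0 UMIs. Fabp5 stood at 989 and 726 CPM at 1 day and 113 and 97.2 CPM at 3 weeks in the proliferating cells, against 908, 690.1, 473 and 342 CPM in the cells at 0 UMIs of the same libraries (-1.93 ± 0.19, edgeR adjusted p = 5.05e-13). Apoe changed by -0.82 ± 0.16 and Cxcl14, a chemokine, by -1.50 ± 0.22 (edgeR adjusted p = 5.49e-04 and 4.92e-07). In the list 11 of 29 disease-associated genes had a more negative gap at 3 weeks and none a more positive one (median -0.48, beside 1.7% and 1.79% of all genes), 5 to 13 with a library left out.

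Cdkn1a, the p53 target p21, changed in the opposite direction. It stood at 94.4 and 402 CPM at 1 day and 390.4 and 521 CPM at 3 weeks in the proliferating cells, against 646, 620.0, 234 and 458 CPM in the cells at 0 UMIs of the same libraries, lower in proliferating cells at 1 day and higher at 3 weeks, with a difference of gaps of 1.71 ± 0.23 (edgeR adjusted p = 3.12e-08). The difference was 1.12 without 1 day replicate 1 and 3.27 without 1 day replicate 2. In 1 day replicate 2 a single cell held 43.9% of its UMIs. Spp1, Fabp5, Apoe, Cxcl14 and Cdkn1a were called in every alternative with a library block. Tmem119 (1.39 ± 0.30) and Selplg (0.94 ± 0.23) had more positive gaps at 3 weeks, calls lost in 4 and 5 of 9 alternatives, and Tmem119 stood at 0.85 without 1 day replicate 1 and 2.96 without 1 day replicate 2.

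Cytosolic ribosomal protein genes had a more negative gap at 3 weeks in 59 of 84 (median -0.60, beside 1.7% of all genes), Rpl30 (-0.81 ± 0.17) and Rps21 (-0.80 ± 0.17) among them, but in 7 with library size alone, in 18 without cells that hold other macrophage markers, and in 37 without 1 day replicate 2, 30 without 1 day replicate 1, 13 without 3 weeks replicate 1 and none without 3 weeks replicate 2. Ribosomal proteins made up 19.6% and 18.1% of UMIs in proliferating cells at 1 day and 13.5% and 18.5% at 3 weeks, against 16.3%, 16.7%, 14.5% and 21.0% in cells at 0 UMIs. Interferon-stimulated genes had a more positive gap in 10 of 34 (median 0.95, beside 1.79% of all genes), Ifi27l2a (1.91 ± 0.28) and Ly6e (0.85 ± 0.19) among them, but in 0 without 1 day replicate 2 and in 1 without 3 weeks replicate 2. Mitosis genes, to which the rule is close, so that the count is a description, had a more positive gap in 33 of 82 (median 1.62), 2 without 1 day replicate 2 and 4 without 3 weeks replicate 2. Ttr, transthyretin of the choroid plexus, had the most negative value (-8.88 ± 0.33), with 528 of its 562 UMIs in proliferating cells of 1 day replicate 2 held by 1 cell.

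**Figure D5:**
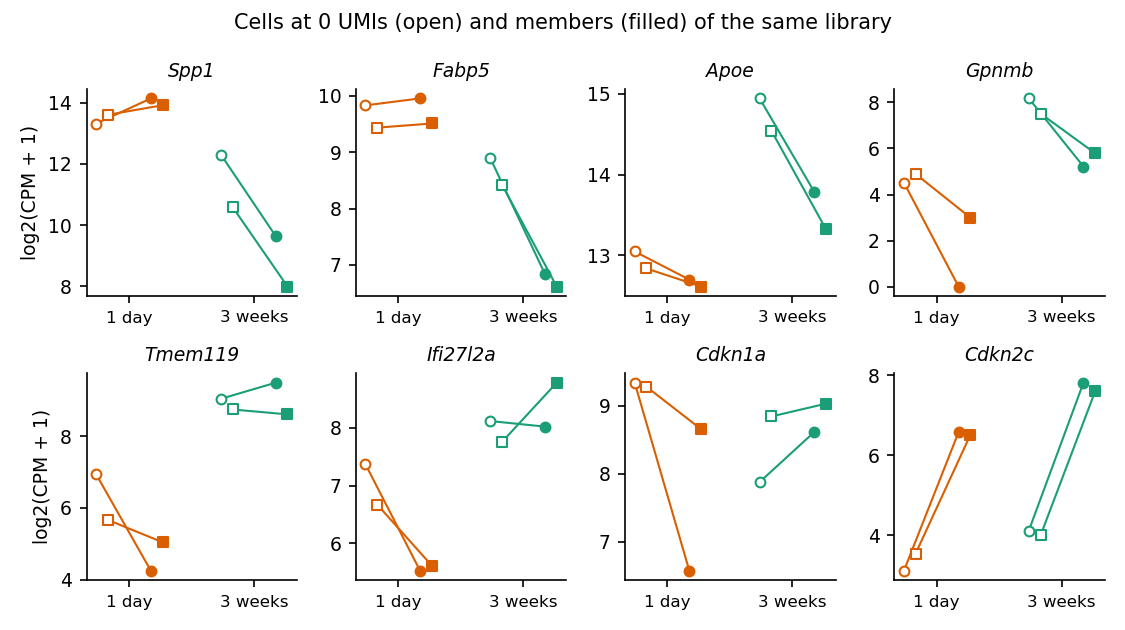
Levels as log2(CPM + 1) of 8 genes in cells at 0 UMIs (open) and proliferating cells (filled) of the same library, joined by a line, at 1 day (orange) and 3 weeks (green), with circles for replicate 1 and squares for replicate 2. Spp1 lines go up at 1 day and down at 3 weeks, Cdkn1a lines the opposite way, Gpnmb lines go down and Cdkn2c lines up in each library.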

How the data were processed

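Single-cell libraries were made by the authors with 10x Genomics 3' v2 chemistry, and the submitters' processing notes name Cell Ranger 1.3.0 and mm10. The authors deposited raw UMI counts, 1 table per library. An aggregation step is described, and whether the tables come before or after it (which could equalise depth) is not given in the sources used here. The study's limits on cells had not been applied to the tables and were applied here (5% mitochondrial UMIs, 400 genes, 30000 UMIs), which removed 578 of 19637 barcodes. No doublets were called. Groups followed the sample labels.

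UMIs of proliferating cells and of cells at 0 UMIs were summed in each library with at least 10 proliferating cells (4 libraries, 8 sums). Genes passing filterByExpr (minimum count 10) were tested with edgeR 4.0.16 in R 4.3.3 (TMM, quasi-likelihood, Benjamini-Hochberg), with library as a block for the comparison within libraries and for the interaction. CPM were taken with TMM factors in fits and on plain totals in list sums. A call needed FDR below 0.05 and, except for the interaction, a fold change over 1.5. The scripts were tested on simulated data.

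Replicate numbers were not taken to pair the libraries of 1 day and 3 weeks. Deviations of same-numbered libraries correlated at 0.003, a single value that cannot exclude a pairing.

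Proliferating sums held 219778 and 999843 UMIs at 1 day and 757122 and 1291730 at 3 weeks, so that low genes are least certain in 1 day replicate 1 (20 cells). Alternatives were DESeq2 1.42.0, library size alone, no filter on low counts, depth-matched cells (2 cells at 0 UMIs per proliferating cell), thinning to 3000 UMIs, other thresholds, the block, and leaving out each library. Leaving out cells with at least 2 UMIs of other macrophage and monocyte markers, fitting each time alone, and thinning the in vitro and adult libraries were chosen after seeing the data. The cells and gene lists were chosen with earlier results of these data known. The text names key cell cycle and microglia genes, up to 3 leading genes of each list, and the 10 largest rises and falls (6 for time and interaction) with average log2 CPM of at least 6, each in the same direction in every library. Genes named outside these were chosen after their values were seen. Some genes are not reported here.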

Additional observations from a re-analysis of the deposited data

Results flagged for a closer look

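The gap between proliferating cells and cells at 0 UMIs differed between 3 weeks and 1 day for these genes, on the log2 scale as the 3 week gap minus the 1 day gap (edgeR interaction). More negative at 3 weeks were Spp1 (-3.10), Fabp5 (-1.93), Cxcl14 (-1.496), Apoe (-0.82), Wfdc17 (-2.68), Chst1 (-1.53), Lpl (-0.76), Rpl30 (-0.81), Rps21 (-0.802) and Ttr (-8.88). More positive at 3 weeks were Cdkn1a (1.71), Tmcc3 (1.93), Ifi27l2a (1.91), Ccl5 (1.58), Gtpbp2 (1.56), Lst1 (1.52), Tmem119 (1.39), Selplg (0.94) and Ly6e (0.85).

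Ttr rested on 1 cell and stood at -0.87 without 1 day replicate 2. Wfdc17 (-1.85) and Ifi27l2a (2.48) were not called without that library, Gtpbp2 (1.23), Lpl (-0.75) and Chst1 (-1.57) not without 3 weeks replicate 2, Chst1 (-0.94) not without 1 day replicate 1, and Lst1 (0.66) not without cells that hold other macrophage markers. Fewest calls were kept by Tmcc3 (1 of 9 alternatives), Ly6e (3 of 9), Ccl5 and Selplg (4 of 9 each) and Tmem119 (5 of 9). With a library left out, values ranged from 1.12 to 3.27 for Cdkn1a, 0.85 to 2.96 for Tmem119, 1.16 to 2.52 for Ccl5, 1.23 to 2.49 for Gtpbp2, 1.13 to 2.56 for Lst1 and -2.60 to -0.94 for Chst1, each lowest in size without 1 day replicate 1 (Gtpbp2 without 3 weeks replicate 2) and largest without 1 day replicate 2, and Ifi27l2a from 1.21 (without 3 weeks replicate 2) to 2.48. Tmcc3 had 0 and 5 UMIs in the proliferating cells of 1 day and ranged from 1.301 to 9.99, the latter with the 1 day group at 0. In 3 weeks replicate 2, 1 cell held 13 of the 17 Ccl5 UMIs of the proliferating cells and 1 cell 45.0% of those of the cells at 0 UMIs. The causes were not tested.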

How the results depend on the processing

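The share of proliferating cells at 1 day (6.5%) was 10.2% at 3 or more UMIs, 1.56% at 10 or more and 0.346% at 5 or more thinned UMIs, and at 1 week (2.47%) it was 5.78%, 0 and 0, and 5.53% at 2 or more thinned UMIs. The causes were not tested, beyond that a lower threshold admits more cells. Leaving out a library gave 4.44% to 8.56% at 1 day, 1.61% to 3.33% at 1 week and 4.63% to 8.07% at 3 weeks.

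Between proliferating cells and cells at 0 UMIs, higher genes numbered 483 with thinning and lower genes 328 with DESeq2, 237 with library size alone, 986 without the filter (more genes tested) and 323 with thinning. Leaving out a library gave 550 to 795 higher and 326 to 508 lower. Between 3 weeks and 1 day the numbers were 276 and 342 with DESeq2 and 404 and 260 with thinning, and 350 to 1029 and 306 to 1142 with a library left out. For the interaction, more positive genes numbered 103 with depth-matched cells, and 453 and 50 (more negative) were called with library size alone and 107 and 74 without cells that hold other macrophage markers. A library left out gave 26 to 165 and 19 to 165.

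Without the library block, 344 genes were lower in proliferating cells, and the interaction called 0 and 0. As a block, the replicate number, which was not taken to pair the libraries, gave 685 higher and 680 lower genes between 3 weeks and 1 day, within 1.5 times the counts of the fit without it (626 and 642).

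Of the named genes' values under alternatives, 1250 kept direction and call, 175 were no longer called, 14 became called and 23 turned in sign. Of those that turned against cells at 0 UMIs, Spp1 at 1 day and Cdkn1a at 3 weeks passed the test with the opposite sign. Saa3 was 0.0098 and P2ry12 0.018 with depth-matched cells. Tmem119 was 0.15 with depth-matched cells, 0.15 at 10 or more UMIs and 0.33 in the 3 week libraries (with a library left out, -0.55 to 0.081, positive without 1 day replicate 1). Cx3cr1 was 0.060 with library size alone, 0.11 depth-matched, 0.046 thinned, 0.044 at 10 or more UMIs and 0.067 at 3 weeks (-0.097 to 0.014, positive without 1 day replicate 1). Spp1 was 0.62 at 1 day. Ccnd1 was 0.075 with library size alone, 0.032 depth-matched, 0.012 without the block and 0.15 at 1 day (-0.14 to 0.16, positive without 3 weeks replicate 1). Cdkn1a was 0.55 at 10 or more UMIs and 0.61 at 3 weeks (-0.71 to 0.18, positive without 1 day replicate 1). Between 3 weeks and 1 day, a library left out gave -0.039 to 0.19 for Ccnb1, negative without 1 day replicate 2, and -0.0079 to 0.33 for Ccna2, negative without 3 weeks replicate 1.

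With 2 libraries per group, an exact two-sided permutation test of the shares admits no p below 0.333. The 1 week libraries (124 and 60 cells) allow no test of genes, and some genes of the 20 and 77 proliferating cells at 1 day rest on 1 cell. Study label and 3 weeks replicate 1 cannot be told apart.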
